A study of Mus musculus with 3 samples.

Results

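Retinal pericytes were described here as the droplets of 3 single-cell RNA-seq libraries that carried pericyte transcripts and few transcripts of endothelial or smooth muscle cells. A member had unique molecular identifiers (UMIs, each standing for 1 captured mRNA molecule) of at least 3 of 6 pericyte genes, namely Kcnj8, Abcc9, Vtn, Pdgfrb, Cspg4 and Higd1b. It had UMIs of at most 2 of 8 endothelial genes and of at most 2 of 6 smooth muscle genes. Members were thus chosen by the measured counts of these 20 genes, whose levels in them are given as a description only. The rule found 230 members among the 5400 barcodes with 500 to 6000 detected genes and 1 to 20% mitochondrial UMIs, out of 8485 barcodes in all.

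The libraries came from retinas of C57BL/6JRj mice, with 1 library for each of 3 ages. Animals of 3 months are called young, those of 12 months adult and those of 23 months old. All 3 ages shared the same wild-type background, and no allele or agent was added. Per the study's methods the retinas of 2 animals were pooled for each library, so no value could be traced to 1 animal. The tissue was dissociated enzymatically, and cells that bear CD31, the endothelial surface protein encoded by Pecam1, were enriched on magnetic beads. Pericytes lack CD31, so their number in a library depended on what the enrichment carried along. With 1 library per age there was no replicate check. All intervals below are 95% intervals that cover counting error only, and age cannot be told apart from the library or the pool of animals.

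Pericytes are mural cells that lie in the basement membrane of capillaries and touch the endothelium through gaps in it. They are recruited by endothelial PDGF-B through the receptor PDGFRB, they carry an ATP-sensitive potassium channel that sets their membrane potential, and they help to set capillary tone and the blood-retinal barrier. The retina is known for a dense pericyte cover, and loss of these cells is a classic early lesion of diabetic retinopathy. Arteriolar smooth muscle cells are their nearest relatives and are told apart mainly by contractile proteins.

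The young library held 110 members among 1713 kept barcodes (6.42%, interval 5.31 to 7.69%). The adult library held 65 of 1974 (3.29%, 2.55 to 4.18%) and the old library 55 of 1713 (3.21%, 2.43 to 4.16%). The young share lay above both others beyond counting error, and the adult and old shares overlapped. These shares depended on the CD31 enrichment and on the endothelial limit of the rule. Of 592, 525 and 426 kept barcodes with at least 3 pericyte genes at the respective ages, 73.8%, 76.8% and 77.5% were left out because they also carried more than 2 endothelial genes. Members had a median of 3710, 3659 and 3904 UMIs at the 3 ages and 408436, 239645 and 231419 UMIs in all, so that 3 UMIs, the least taken as a level, stood for 7.35, 12.5 and 13 UMIs in 1000000 (counts scaled to that total are called CPM here). No member barcode was shared between libraries.

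The label of these droplets was checked with markers that the rule did not use. Rgs5, a regulator of G-protein signalling and a defining mural gene, had a UMI in 100%, 100% and 96.4% of the young, adult and old members. In rods, photoreceptors that should lack it, the share was 7.89%, 4.51% and 5.88%. Rods were taken here as droplets with at least 6 of 10 rod markers, at most 1 pericyte gene and at most 1 endothelial gene. Aspn, which encodes the matrix protein asporin, was detected in 87.3%, 78.5% and 72.7% of members and in none of the 190, 355 and 238 rods. Both markers were thus present in most members, Aspn in fewer. They mark mural cells and do not set pericytes apart from smooth muscle cells, of which 98.1%, 95% and 94% had Rgs5 and 88.7%, 83.3% and 86% had Aspn. Of endothelial cells, 45.9%, 42.3% and 38.6% had a UMI of Rgs5 and 1.57%, 0.28% and 2.47% one of Aspn. Endothelial cells, used below for comparison, were droplets with at least 5 of the 8 endothelial genes, at most 1 pericyte gene and at most 1 smooth muscle gene.

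**Figure D1:**
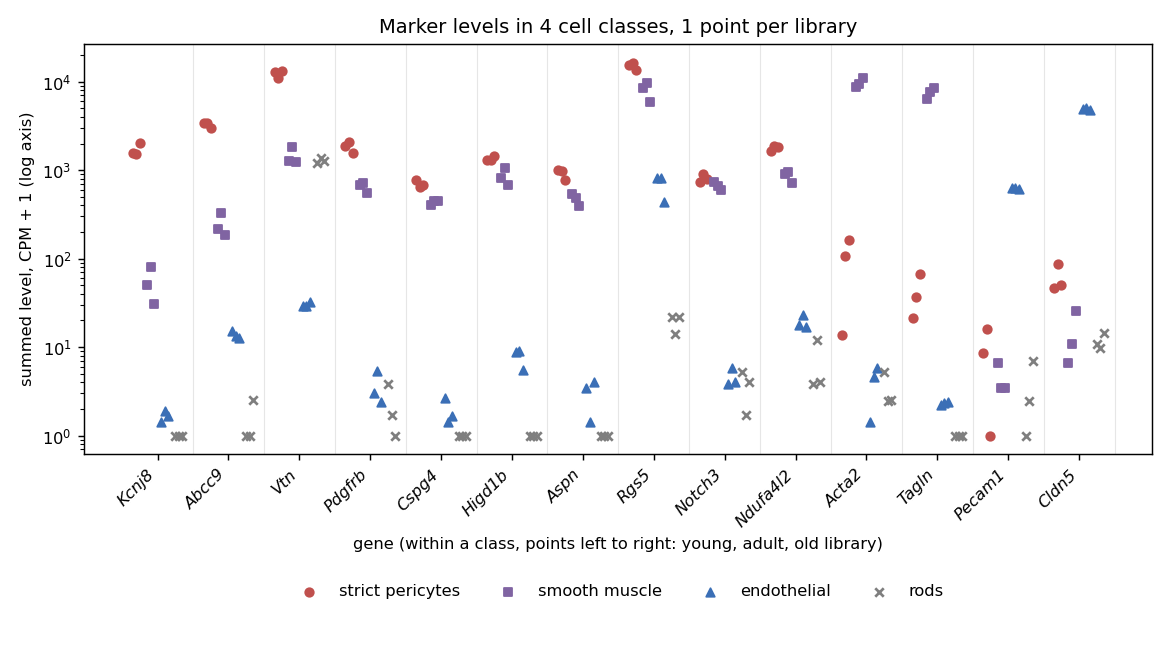
Levels of pericyte, smooth muscle and endothelial marker genes in strict pericytes, smooth muscle cells, endothelial cells and rods, as CPM + 1 on a log axis; each point is 1 gene summed over the cells of 1 library. Rgs5 lay between 13388 and 16400 CPM in strict pericytes and between 13.1 and 21.1 CPM in rods.

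Of the members, 12, namely 3 young, 3 adult and 6 old, held UMIs of at least 4 markers of another retinal cell type. They carried 2.12%, 9.79% and 21.1% of the members' UMIs at the 3 ages. Of the old droplets, 1 held 23058 UMIs with 2210 of Ttr, which encodes the thyroid hormone carrier transthyretin, and 131 of Rpe65, the retinoid isomerase of the pigment epithelium. A further old droplet of 6575 UMIs held 432 of Ttr and 27 of Rpe65, and both had 0 UMIs of Rgs5. Among the young, 1 droplet was rich in cone markers, and among the adult 2 were rich in bipolar cell markers. Of the 12, 7 (2 young, 2 adult and 3 old) held 5 or 6 of the 6 pericyte genes and between 10 and 115 UMIs of Rgs5, so that they carried pericyte transcripts beside the other markers. The other 5 held 3 pericyte genes. Results are therefore given for strict pericytes, which had at least 4 of the 6 pericyte genes and fewer than 4 markers of each other cell type. This definition was chosen after seeing the data. It kept 105, 54 and 48 cells with 397710, 197628 and 181502 UMIs. The value over all members is added for some of the results that differ.

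**Figure D2:**
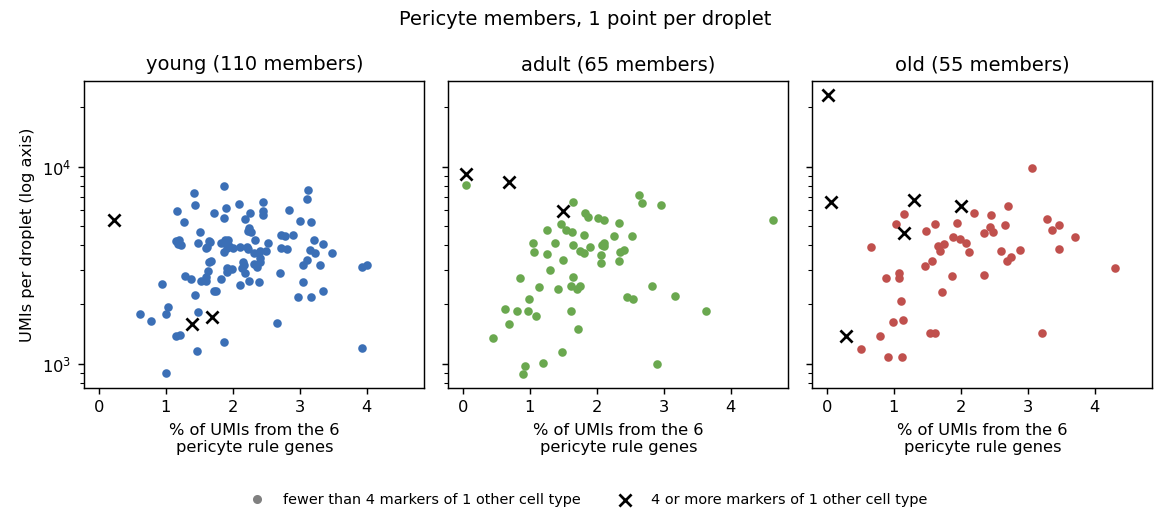
Each point is 1 member, by library, with the percent of its UMIs that came from the 6 pericyte genes against its total UMIs on a log axis; crosses mark the 12 members with 4 or more markers of another cell type. The 2 old pigment epithelium droplets, at 23058 and 6575 UMIs, have the lowest pericyte gene percentages of the old library.

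Few members lay at the pericyte gene limit of the rule. Exactly 3 pericyte genes were found in 3 young, 9 adult and 4 old members, and 17 pericyte markers outside the rule summed there to 5791, 9444 and 1583 CPM, against 979, 728 and 961 CPM in barcodes with 2 pericyte genes that fell outside. Many more lay at the endothelial limit, with 32 young, 19 adult and 17 old members (29.1%, 29.2% and 30.9%) at exactly 2 endothelial genes. Rgs5 stood at 16780, 15376 and 12310 CPM in members with exactly 2 endothelial genes and at 15592, 14325 and 14326 CPM in barcodes with 3. At the smooth muscle limit Acta2, smooth muscle actin, stood at 793, 818 and 1078 CPM with exactly 2 smooth muscle genes and at 7371, 3302 and 1556 CPM with 3.

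Of the 17 pericyte markers outside the rule, 15 had enough UMIs in strict pericytes, and their sum stood at 23391, 24389 and 21548 CPM at the 3 ages, an old-to-young ratio of 0.921 (0.887 to 0.956). Rgs5 alone took the largest share of that sum, at 15484, 16400 and 13388 CPM, so the ratio mainly follows this gene. Of these 15, 1 was past the fold, Tbx3, on the lower side, where 6.51% of all genes were. P2ry14, a receptor for UDP-glucose, stood at 774, 865 and 854 CPM, and Art3, an ADP-ribosyltransferase, at 443, 369 and 490 CPM. Atp13a5, a P5-type ATPase, stood at 236, 223 and 242 CPM against 24.9 to 47.1 CPM in smooth muscle cells. Ndufa4l2 and Cox4i2, subunits that hypoxia induces in the respiratory chain of many cells, stood at 1662, 1892 and 1829 CPM and at 802, 946 and 992 CPM. The old-to-young intervals of P2ry14, Art3, Atp13a5 and Ndufa4l2 held 1, and that of Cox4i2 lay above it, at 1.24 (1.02 to 1.49). Aspn, a small proteoglycan, was lower, at 1001, 982 and 777 CPM, a ratio of 0.776 (0.636 to 0.943).

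Marker lists of the other cell types were low in strict pericytes and did not all stand level between ages. The low sums follow in part from the definition, which limits the markers of other cell types. The 14 endothelial markers outside the rule summed to 591, 516 and 628 CPM, against 14394 to 17358 CPM in endothelial cells. The 8 fibroblast markers summed to 108, 152 and 182 CPM, and the 9 Müller glia markers, of which Vim is the main one here, to 284, 521 and 501 CPM. Rod markers summed to 148, 228 and 171 CPM, cone markers to 32.7, 25.3 and 38.6 CPM and bipolar markers to 45.3, 45.5 and 27.5 CPM. Microglia and B cell markers were at 0 UMIs at every age. Over all members, by contrast, the pigment epithelium markers summed to 0, 1 and 3401 UMIs and the Müller glia markers to 115, 181 and 1054.

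The genes of the ATP-sensitive potassium channel stood at high levels at all ages. Kcnj8, its pore subunit (chr6:142564837-142571614, mm10), stood at 1554, 1518 and 2050 CPM in young, adult and old strict pericytes. The old library was the highest, with an old-to-young ratio of 1.32 (1.16 to 1.5), whereas over all members the ratio was 1.08 (0.952 to 1.23). Abcc9, the sulfonylurea receptor subunit that lies beside it (chr6:142587862-142702315), stood at 3412, 3405 and 2997 CPM, with an old-to-young ratio of 0.878 (0.794 to 0.971). The pore gene and the receptor gene thus lay on opposite sides of 1 in the strict cells, by less than 1.5-fold each. Both chose the members, so these levels describe the selection as much as the cells.

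Of 2165 genes with at least 60 UMIs in strict pericytes, 166 were at least 1.5-fold higher (7.67%) and 141 at least 1.5-fold lower (6.51%) in the old than in the young library, and the median log2 ratio over all of them was 0.04. Over all members the percentages were 9.07% higher and 10.6% lower of 2448 genes. Between the adult and young libraries 132 genes were past the fold upwards (6.1%) and 130 downwards (6%) in strict pericytes, and 6.66% and 7.64% over all members.

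**Figure D3:**
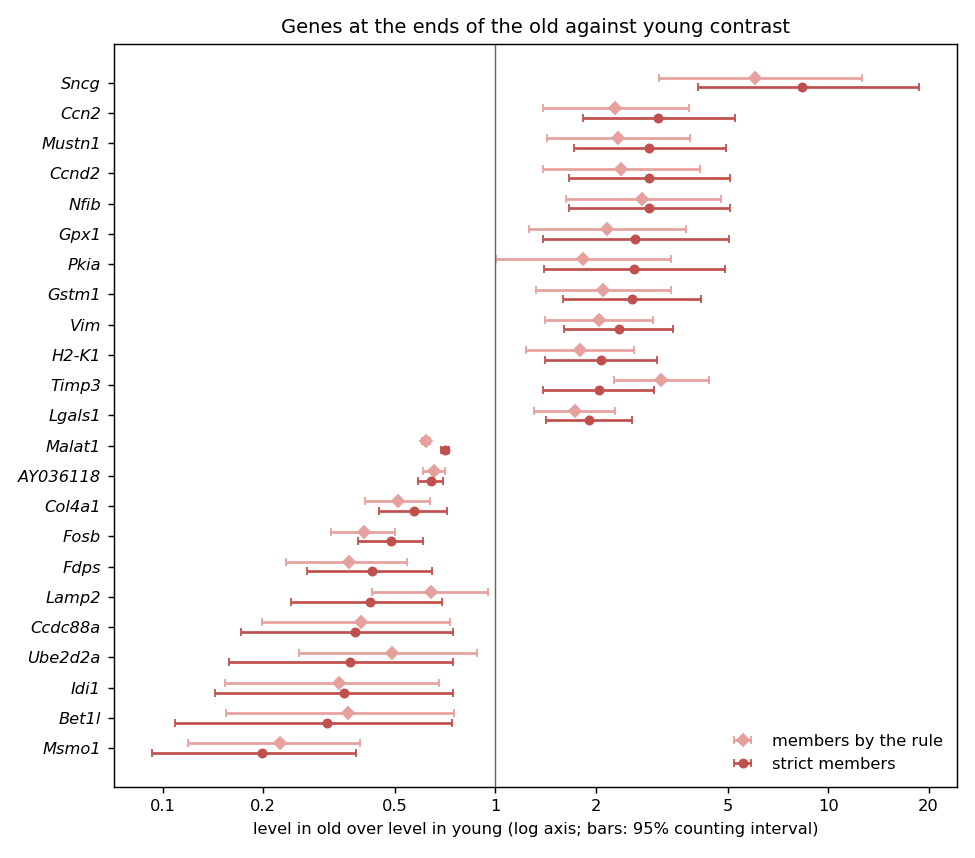
Old-to-young ratio of genes at both ends of the contrast, in strict pericytes and over all members by the rule, on a log axis with 95% counting intervals and a line at 1. In strict pericytes Msmo1 at 0.199 and Sncg at 8.33 lie at the 2 ends.

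Of the 20 functional gene lists, sterol synthesis had the old-to-young ratio furthest from 1 in strict pericytes. Cells make cholesterol from acetyl-CoA through the mevalonate pathway, whose genes the transcription factor SREBP-2 switches on when membrane sterol is low. The list of 23 genes was drawn up after its leading members had been seen. Its ratio, its counts and its place among the lists therefore describe the choice in part. Its summed level was 1858, 1316 and 948 CPM in young, adult and old strict pericytes, an old-to-young ratio of 0.51 (0.429 to 0.603). Of the 5 listed genes with enough UMIs, 4 were past the fold downwards and none upwards (median log2 ratio -1.23), where 6.51% of all genes were past it downwards and their median log2 ratio was 0.04.

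Within the pathway, the young library was the highest and the old the lowest at each of the 4 steps that follow. Hmgcs1, which makes HMG-CoA, stood at 214, 142 and 116 CPM, with an old-to-young ratio of 0.541 (0.319 to 0.881). Idi1, the isomerase of isopentenyl diphosphate, stood at 126, 65.8 and 44.1 CPM, a ratio of 0.351 (0.144 to 0.745). Fdps, farnesyl diphosphate synthase, stood at 350, 162 and 149 CPM, a ratio of 0.426 (0.271 to 0.646). For Fdps most of the difference was already present at 12 months. Msmo1, the sterol demethylase late in the pathway (chr8:64718139-64733792), had the lowest ratio of these, 0.199 (0.0929 to 0.38), at 277, 167 and 55.1 CPM. With each cell thinned to 2000 UMIs, Msmo1 had a UMI in 37.9%, 28.3% and 15% of strict pericytes, which shows the same order at equal depth.

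The regulators of the pathway were mixed. Insig1, which holds SREBP in the endoplasmic reticulum, had 43, 7 and 9 UMIs, just too few to enter the counts, and stood at 108, 35.4 and 49.6 CPM, a ratio of 0.459 (0.197 to 0.954). Srebf2, the gene of SREBP-2 itself, was the entered gene not past the fold, at 161, 142 and 149 CPM, a ratio of 0.924 (0.567 to 1.47), and Sqle, squalene epoxidase, had 30, 8 and 15 UMIs, or 75.4, 40.5 and 82.6 CPM, and was highest in the old library. Sc5d, a late desaturase of the pathway, had 11, 13 and 10 UMIs, or 27.7, 65.8 and 55.1 CPM. Both had too few UMIs to enter the counts, and their old-to-young intervals held 1. Scd2, a fatty acid desaturase outside the sterol list, stood at 204, 167 and 110 CPM, a ratio of 0.541 (0.314 to 0.891).

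Single cells showed the same order. The median strict pericyte drew 0.164%, 0.123% and 0.0801% of its UMIs from the sterol list at the 3 ages, and the highest cell 0.613%, 0.515% and 0.296%. The ranges overlapped, with 4, 6 and 8 cells at 0. In smooth muscle cells the list stood at 753, 744 and 516 CPM, an old-to-young ratio of 0.685 (0.569 to 0.824), and in endothelial cells at 527, 537 and 510.3 CPM, a ratio of 0.969 (0.899 to 1.04). In smooth muscle cells 3 of 5 entered genes were past the fold downwards (4.94% of all genes there) and in endothelial cells 0 of 16 (4.03%). The interval in pericytes overlapped that in smooth muscle cells and lay below that in endothelial cells, but the difference between classes was not tested over animals. The list was drawn up after its leading members had been seen, so this comparison describes that choice in part. Strict pericytes stood above both classes in all 3 libraries.

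**Figure D4:**
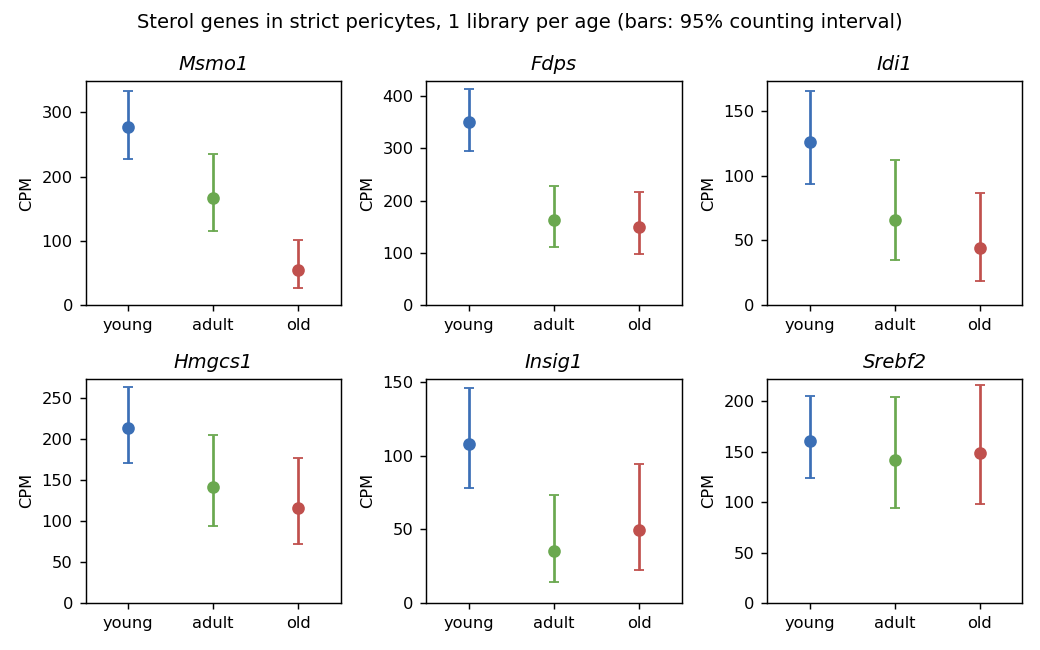
Levels of 6 genes of sterol synthesis and its regulation in strict pericytes, in CPM, with 1 point per library (young, adult and old) and bars for the 95% counting interval. Msmo1 went from 277 to 55.1 CPM between the young and old libraries and Fdps from 350 to 149 CPM, while Srebf2 stood at 161 and 149 CPM.

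The promoter of Hmgcs1 is shown because it was the only one of the listed genes with a sequence here that held the searched core of the sterol regulatory element. RefSeq promoter windows of 250 bases before to 50 after the start (GRCm38.p6) were searched for TCACNCCAC on both strands, a motif chosen after the values had been seen. The core was present in 408 of 32851 windows (1.24%). Of the 6 listed genes past the fold over all members, 5 had a window, and 1 of these held the core. The stretch lies at chr13:119690174-119690262 on the plus strand, with the core in capitals 137 to 129 bases before the start.

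Hmgcs1: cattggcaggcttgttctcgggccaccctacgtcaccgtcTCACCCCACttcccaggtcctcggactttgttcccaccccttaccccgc

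A match describes these letters only, and no match says only that they are not in this window.

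Interferon-stimulated genes, the genes of the antiviral response, had a summed old-to-young ratio near 1 in pericytes and above 1 in both other vascular classes. Of 62 listed genes only 6 had enough UMIs in strict pericytes, against 57 in endothelial cells. Their summed level was 3945, 3871 and 3961 CPM in young, adult and old strict pericytes, a ratio of 1.00 (0.918 to 1.10), with 1 gene past the fold upwards and 2 downwards (median log2 ratio -0.03), where 7.67% and 6.51% of all genes were. The median cell drew 0.299%, 0.328% and 0.356% of its UMIs from the list at the 3 ages, in the order of age, and 1 young cell drew 3.84%, against at most 0.841% in old cells. The summed ratio holds that cell. In endothelial cells the sum was 7670, 8853 and 11809 CPM, a ratio of 1.54 (1.51 to 1.57), with 30 of 57 genes past the fold upwards where 5.05% of all endothelial genes were. In smooth muscle cells it was 1603, 2410 and 2734 CPM, a ratio of 1.71 (1.54 to 1.89), with 2 of 6 genes past the fold upwards (9.58% of all genes there). The pericyte interval lay below both of the others. The difference between classes was not tested over animals.

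The genes that carried the pericyte sum were the Ifitm genes, membrane proteins that block viral entry. Ifitm3 stood at 1026, 987 and 1212 CPM, a ratio of 1.18 (0.998 to 1.40), against 1.69 (1.62 to 1.76) in endothelial cells. Ifitm2 stood at 616, 582 and 650 CPM and Ifitm1, a pericyte marker, at 611, 496 and 556 CPM, and neither old-to-young interval left out 1. Ifi27, an interferon-induced mitochondrial protein, was the gene past the fold upwards, at 168, 273 and 286 CPM and a ratio of 1.70 (1.16 to 2.48).

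Isg15, the ubiquitin-like modifier (chr4:156199424-156200818), had 39, 15 and 6 UMIs in strict pericytes, or 98.1, 75.9 and 33.1 CPM. The old-to-young ratio was 0.337 (0.117 to 0.802), whereas it was 7.55 (3.45 to 19.6) in smooth muscle cells and 2.01 (1.86 to 2.19) in endothelial cells. The young value rested on few cells: 11 of 105 had a UMI, and 2 of them held 18 and 8 of the 39 UMIs. The old members outside the strict definition brought the sum to 16 UMIs, so that the ratio over all members was 0.724 (0.378 to 1.33). Irf7, the interferon regulator, had 4, 4 and 2 UMIs in strict pericytes, which no difference could be read from at this depth, while its ratio in endothelial cells was 2.74 (2.40 to 3.14).

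The interferon-stimulated response element was searched for as GAAA, any 2 bases and GAAA again, on both strands, in the same windows and found in 1131 of 32851 (3.44%), and in 23 of the 46 listed interferon genes with a window (50%). The stretch before Isg15 is shown because the gene's ratio lay below 1 in pericytes and above 1 in both other vascular classes. It lies at chr4:156200835-156200936 on the minus strand, and 3 overlapping matches, in capitals, span bases 78 to 57 before the start.

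Isg15: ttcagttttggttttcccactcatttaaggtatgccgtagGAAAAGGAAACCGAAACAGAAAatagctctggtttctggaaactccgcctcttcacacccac

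The matches lie close to the start, and they say nothing of what is bound there in these cells.

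**Figure D5:**
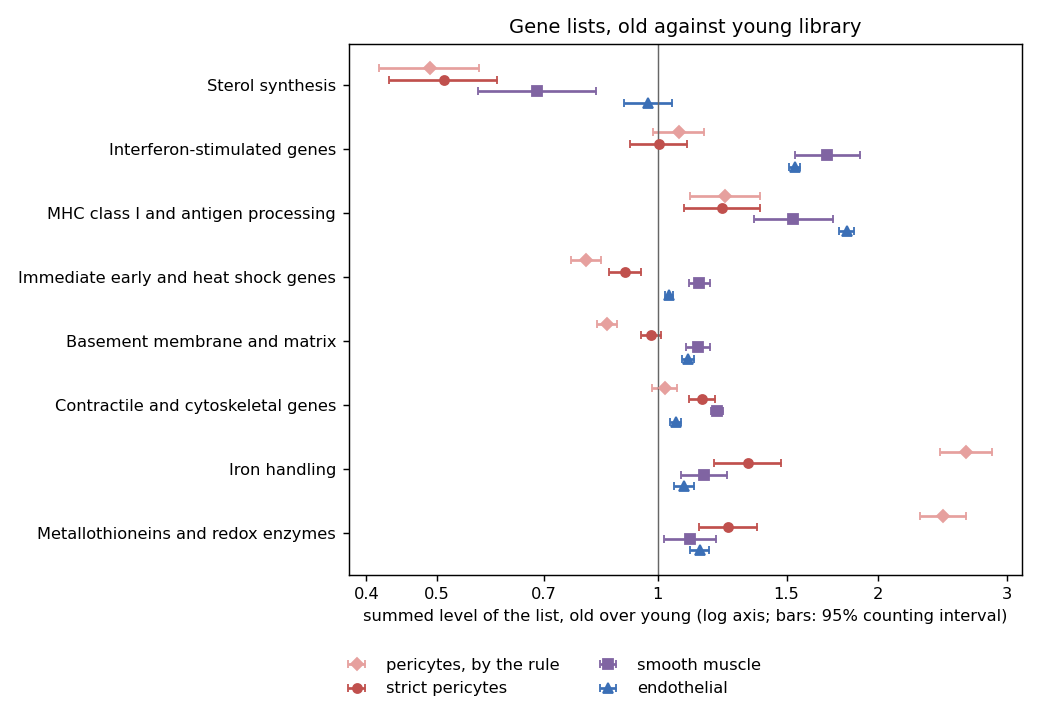
Old-to-young ratio of the summed level of 8 gene lists in all pericytes by the rule, strict pericytes, smooth muscle cells and endothelial cells, on a log axis with 95% counting intervals and a line at 1. The interferon list stood at 1.00, 1.71 and 1.54 in strict pericytes, smooth muscle and endothelial cells, and the sterol list at 0.51, 0.685 and 0.969.

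Antigen presentation by MHC class I, which interferon also drives, was on the higher side in old pericytes. The 21 listed genes summed to 1944, 1994 and 2380 CPM, a ratio of 1.22 (1.09 to 1.38), with 2 of 8 entered genes past the fold upwards where 7.67% of all genes were. The ratio was 1.53 (1.35 to 1.74) in smooth muscle cells and 1.81 (1.77 to 1.86) in endothelial cells. H2-K1, a classical heavy chain (chr17:33996017-34000347), stood at 146, 182 and 303 CPM, a ratio of 2.08 (1.41 to 3.06). Psme1, a proteasome activator subunit, stood at 75.4, 137 and 143 CPM, a ratio of 1.90 (1.08 to 3.32). B2m, the light chain, was at 204, 283 and 298 CPM and a ratio of 1.46 (1.02 to 2.09), over all members 1.61 (1.16 to 2.24), and H2-D1 at 267, 278 and 298 CPM and a ratio of 1.12 (0.789 to 1.56). Over all members the ratio was 1.24 (1.11 to 1.38), and with the library's background profile of free RNA subtracted it was 0.979 (0.854 to 1.12), on the other side of 1. The share of free RNA was taken as 11.6%, 4.37% and 21.6% in the young, adult and old libraries.

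Basement membrane and matrix genes, through which pericytes share a sheath with the endothelium, were level as a list at 31963, 30755 and 31305 CPM in strict pericytes, a ratio of 0.979 (0.949 to 1.01). Vtn, which was also used to choose the members, took the largest share of that sum, at 12869, 10920 and 13306 CPM. The list was not summed without it. Of 24 entered genes, 3 were past the fold upwards and 2 downwards, where 7.67% and 6.51% of all genes were. The 2 lower genes were Col4a1 and Col4a5, both chains of collagen IV. Col4a1 (chr8:11198423-11312826) stood at 883, 774 and 501 CPM, a ratio of 0.568 (0.446 to 0.717), and was detected after thinning in 77.9%, 84.8% and 60% of cells. Col4a5 stood at 106, 60.7 and 38.6 CPM and 0.365 (0.138 to 0.82). Col4a2, which shares its promoter region with Col4a1, stood at 377, 309 and 253 CPM and 0.672 (0.472 to 0.941), and Nid1, the linker nidogen, at 397, 420 and 270 CPM and 0.68 (0.483 to 0.942), and neither was past the fold. Over all members both were past it, at 0.635 (0.457 to 0.873) and 0.626 (0.453 to 0.854), and the list had a ratio of 0.853 (0.827 to 0.879) with 7 of 24 genes past the fold downwards (10.6% of all genes). Mgp, an inhibitor of calcification and after Vtn the most abundant listed gene, stood level at 7697, 8536 and 7763 CPM. In endothelial cells the Col4a1 ratio was 0.909 (0.828 to 0.999) and in smooth muscle cells 1.15 (0.905 to 1.45). Timp3, a metalloproteinase inhibitor, went the other way at 148, 354 and 303 CPM, a ratio of 2.04 (1.39 to 3.00), against 814 to 1052 CPM in smooth muscle cells.

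Contractile and cytoskeletal genes summed to 16841, 19112 and 19394 CPM, an old-to-young ratio of 1.15 (1.10 to 1.20), with 3 of 28 genes past the fold upwards and 1 downwards, where 7.67% and 6.51% of all genes were. Myl9, a regulatory myosin light chain, stood at 1619, 1852 and 2308 CPM and a ratio of 1.43 (1.26 to 1.61), against 4198 to 4935 CPM in smooth muscle cells. Rock1, the kinase that keeps myosin phosphorylated, stood at 204, 395 and 325 CPM and 1.60 (1.12 to 2.26), against 609 to 712 CPM there. Actn1, alpha-actinin, stood at 126, 147 and 49.6 CPM and 0.394 (0.171 to 0.81). Myh11, smooth muscle myosin, stood at 101, 142 and 209 CPM, a ratio of 2.08 (1.30 to 3.33), although it is among the 6 smooth muscle genes that the rule limits.

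Several of the genes highest in old pericytes are genes that smooth muscle cells carry at far higher levels. The 6 smooth muscle genes summed to 141, 299 and 463 CPM in strict pericytes at the 3 ages. Acta2 had 5, 21 and 29 UMIs there, in 1, 5 and 6 cells, and Cnn1, calponin, had 0 at every age. Sncg, gamma-synuclein (chr14:34370274-34374789), stood at 25.1, 65.8 and 209 CPM, a ratio of 8.33 (4.07 to 18.7), with its 38 old UMIs in 12 cells and 12 of them in 1 cell. In smooth muscle cells it stood at 1155, 1503 and 1610 CPM. Mustn1, a muscle nuclear protein, was at 70.4, 126 and 204 CPM against 825 to 1218 CPM in smooth muscle cells. Vim, the intermediate filament vimentin, was at 143, 339 and 336 CPM against 2069 to 2918 CPM, and Ccnd2, cyclin D2, at 62.9, 91.1 and 182 CPM against 731 to 945 CPM. In all members with no UMI of any smooth muscle gene, 81, 39 and 33 droplets, the old-to-young ratios were 2.82 (0.935 to 8.91) for Sncg, 1.78 (0.88 to 3.53) for Mustn1, 1.99 (1.25 to 3.15) for Vim and 2.32 (1.15 to 4.68) for Ccnd2. Droplets with 4 or more markers of another cell type gave 1.86%, 17.3% and 14.7% of the UMIs of that set at the 3 ages, and Vim is also a Müller glia marker. In all members with no UMI of any endothelial gene, 26, 19 and 12 droplets, they were 0.446 (0.0452 to 2.34) for Mustn1 and 0.312 (0.0333 to 1.47) for Vim. That set is not one of strict pericytes, since droplets with 4 or more markers of another cell type gave 6.6%, 13.5% and 59.5% of its UMIs at the 3 ages. The part of smooth muscle RNA in these differences, and in those of Myl9, Rock1, Hspb1, Timp3, Pde3a, Gpx1 and Fth1, was not tested.

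Gstm1, Nfib and Pkia, also past the fold upwards, stood at levels that overlapped those of smooth muscle cells. Gstm1, a glutathione transferase, stood at 88.0, 101 and 226 CPM, a ratio of 2.57 (1.59 to 4.15), and its ratio was 0.446 (0.0452 to 2.34) in the set with no endothelial gene, where most old UMIs came from droplets with markers of other cell types. Nfib, a nuclear factor I protein, stood at 62.9, 96.1 and 182 CPM and 2.89 (1.67 to 5.07). Pkia, an inhibitor of protein kinase A, stood at 52.8, 70.8 and 138 CPM and 2.61 (1.40 to 4.90). All 3 genes were highest in the old library. Ccn2, a matricellular growth factor, stood at 67.9, 35.4 and 209 CPM, below the 227 to 439 CPM of smooth muscle cells, and 15 of its 38 old UMIs came from 1 cell.

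The 12 genes with the lowest upper bounds of the old-to-young ratio in strict pericytes also held genes outside the lists of sterols, matrix and stress. Lamp2, a lysosomal membrane protein, stood at 249, 218 and 105 CPM, a ratio of 0.421 (0.243 to 0.692). Ccdc88a, the actin-binding protein girdin, stood at 146, 60.7 and 55.1 CPM and 0.378 (0.172 to 0.746), and Ube2d2a, a ubiquitin-conjugating enzyme, at 136, 132 and 49.6 CPM and 0.365 (0.159 to 0.746). Bet1l, a SNARE of the Golgi, had 42, 13 and 6 UMIs, a ratio of 0.313 (0.109 to 0.74). In the set with no endothelial gene, which holds those droplets, Lamp2 stood at 1.19 (0.533 to 2.61) and Ube2d2a at 1.12 (0.279 to 4.08). In endothelial cells the intervals for all 4 of these genes held 1. The adult-to-young interval held 1 for Lamp2, Ube2d2a and Bet1l and lay below 1 for Ccdc88a, at 0.416 (0.204 to 0.784).

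Receptors and second messengers of vascular tone were mixed. The list summed to 22358, 23504 and 20898 CPM, a ratio of 0.935 (0.90 to 0.971), a sum in which Rgs5 takes the largest share at 15484, 16400 and 13388 CPM. Pde3a, a cyclic AMP phosphodiesterase, stood at 118, 157 and 248 CPM, a ratio of 2.10 (1.36 to 3.23), against 657 to 764 CPM in smooth muscle cells. Prkg1, the kinase that cyclic GMP activates, stood at 161, 111 and 71.6 CPM, a ratio of 0.445 (0.225 to 0.816). Ednrb, an endothelin receptor, stood at 55.3, 91.1 and 110 CPM and 1.99 (1.03 to 3.83). Gucy1b1, a subunit of the nitric oxide receptor, was level at 905, 850 and 942 CPM, 1.04 (0.862 to 1.25). Among ion channel and calcium genes, 1 of 12 was past the fold downwards (6.51% of all genes), Itpr2, a calcium release channel, at 153, 142 and 66.1 CPM and 0.431 (0.211 to 0.809).

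Genes of signalling between pericytes and endothelium were mixed. None of the 7 entered genes of the PDGF and receptor kinase list was past the fold. Pdgfrb, which is in that list and was also used to choose the members, stood at 1888, 2085 and 1548 CPM. Notch3, the mural Notch receptor, stood at 734, 896 and 793 CPM, a ratio of 1.08 (0.879 to 1.32). Of 20 entered Notch, TGF-beta, BMP and Wnt genes (7.67% of all genes were higher and 6.51% lower), 2 were past the fold upwards, Ltbp4 among them at 1.53 (1.08 to 2.17), and 2 downwards, Tgfbr3 among them at 0.476 (0.214 to 0.957). Ackr3, a scavenging receptor for CXCL12, stood at 367, 460 and 612 CPM, a ratio of 1.67 (1.29 to 2.15).

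Transcription factors of the mural lineage were level as a list, with a ratio of 1.04 (0.969 to 1.11) and 3 of 18 past the fold upwards and 1 downwards, against 7.67% and 6.51% of all genes. The paralogues Tbx2 and Tbx3, T-box factors, lay on opposite sides. Tbx2 stood at 146, 218 and 270 CPM, a ratio of 1.85 (1.24 to 2.76), and Tbx3 at 234, 111 and 132 CPM, a ratio of 0.565 (0.345 to 0.894). For Tbx3 the young library stood apart from both later ages. Ebf1, a defining mural factor, was at 1227, 1224 and 1146 CPM.

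Immediate early and heat shock genes, which respond within minutes to stress and to dissociation, were lower as a list in both later libraries, at 13822, 11102 and 12479 CPM, with an old-to-young ratio of 0.903 (0.859 to 0.948). Of 23 entered genes, 2 were past the fold upwards and 4 downwards, against 7.67% and 6.51% of all genes. Fosb stood at 1101, 653 and 534 CPM, a ratio of 0.485 (0.385 to 0.606), and the gene of its partner, Jun, at 1966, 1564 and 1372 CPM, a ratio of 0.698 (0.603 to 0.806), over all members 0.582 (0.504 to 0.67). Hspa8, a constitutive chaperone, stood at 450, 455 and 683 CPM and 1.52 (1.20 to 1.92). Hspb1, a small heat shock protein, stood at 362, 445 and 573 CPM and 1.58 (1.22 to 2.05), against 955 to 1180 CPM in smooth muscle cells. The inducible chaperone Hspa1a went the other way at 490, 344 and 286 CPM. These genes also read tissue handling, which cannot be told apart from age here. Malat1, a nuclear RNA, took 5.51%, 6.37% and 3.40% of member UMIs.

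The summed iron and redox lists were higher in old than in young strict pericytes by less than 1.5-fold. The iron list stood at 2371, 2646 and 3152 CPM, a ratio of 1.33 (1.20 to 1.48), with none of 4 genes past the fold. Its main genes were the ferritin chains Fth1, at 1214, 1321 and 1620 CPM, and Ftl1, at 606, 794 and 876 CPM. The redox list had a ratio of 1.25 (1.14 to 1.37) with 2 of 15 past the fold upwards (7.67% of all genes). These were Gstm1 and Gpx1, a glutathione peroxidase at 50.3, 116 and 132 CPM and 2.63 (1.39 to 5.02). Smooth muscle cells carried Gpx1 at 227 to 327 CPM and Fth1 at 2755 to 3317 CPM. Over all members these ratios were 2.64 for iron and 2.45 for redox, and those of chemokines and of complement were 7.32 and 2.08 against 1.17 and 1.16 in strict pericytes. The higher values came with members outside the strict definition. Mt1, metallothionein, had 547 UMIs in the old members but 10 in the old strict cells, Apoe 546 and 12, and Clu 293 and 3.

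In strict pericytes 4 lists of metabolism and membrane proteins had old-to-young ratios from 0.806 to 1.15. The list of hypoxia-type mitochondrial subunits, which also holds the transcription factor Epas1, summed to 6276, 6704 and 6904 CPM. Its ratio was 1.10 (1.03 to 1.18), with none of 9 genes past the fold. Part of that sum is Higd1b, at 1302.5, 1310.5 and 1443.5 CPM, which was also used to choose the members. Solute carriers summed to 1365, 1452 and 1201 CPM, a ratio of 0.88 (0.748 to 1.03), with 1 of 6 past the fold downwards (6.51% of all genes), Slc38a11, an amino acid transporter, at 269, 278 and 171 CPM and 0.635 (0.411 to 0.955). S100 and annexin genes had a ratio of 1.15 (1.01 to 1.31), and Anxa6, a calcium-dependent membrane-binding protein, stood at 113, 81 and 193 CPM and 1.70 (1.06 to 2.71). The lipid list had a ratio of 0.806 (0.704 to 0.922), with 1 of 6 genes past the fold upwards and 3 downwards (7.67% and 6.51% of all genes), and it shares sterol genes with the sterol list. Over all members it stood at 2.02, on the other side of 1.

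The senescence and cell cycle arrest list had a summed ratio of 0.994 (0.922 to 1.07), in which Igfbp7, at 4307, 4235 and 4116 CPM, took the largest share. Of its 5 entered genes, 1 was past the fold upwards (7.67% of all genes), Ccnd2 at a ratio of 2.89 (1.67 to 5.07). Cdkn1a, the p21 inhibitor, had 3, 3 and 8 UMIs in young, adult and old strict pericytes, or 7.54, 15.2 and 44.1 CPM, a ratio of 5.84 (1.40 to 34.2). They came from 3 cells in each library, 2.86%, 5.56% and 6.25% of cells, with overlapping intervals. Cdkn2a, the p16 locus, had 11, 7 and 4 UMIs. At this depth a ratio of 0.185 to 2.69 remained possible for Cdkn2a. Smooth muscle cells carried Cdkn1a at 60.9, 117 and 231 CPM, a ratio of 3.79 (2.36 to 6.33).

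Strict pericytes were also compared with smooth muscle cells, and 4 of the genes higher in them that the rule did not use are given. Of 4714 genes compared over the summed libraries, 984 were at least 1.5-fold higher in pericytes (20.9%) and 653 lower (13.9%). Cygb, the globin cytoglobin, stood at 498, 526 and 595 CPM in young, adult and old pericytes and at 24.9, 52.1 and 37.2 CPM in smooth muscle cells. Cxcl12, the chemokine that Ackr3 scavenges, stood at 377, 445 and 369 CPM against 24.9, 34.7 and 54.6 CPM. Ptn, the growth factor pleiotrophin, stood at 440, 390 and 275 CPM against 30.5, 7.44 and 7.44 CPM, and Emcn, endomucin, at 284, 223 and 275 CPM against 22.2, 17.4 and 4.96 CPM. Emcn is also an endothelial gene, and the part of endothelial RNA in its level was not tested. These 4 genes were picked among those with the highest ratios, after their values had been seen. That the 3 libraries of each class did not overlap for them describes that choice.

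Against all other kept barcodes, mixed droplets included, the 15 genes with the highest lower bound of the ratio held 3 genes of the rule and 5 of the pigment epithelium. Kcnj8 stood 8.34-fold higher in members, Abcc9 7.97-fold and Vtn, the matrix protein vitronectin, 7.34-fold, as the rule required. Ttr, Rpe65, Rgr, Ptgds and Rdh5 came from the old pigment epithelium droplets in the main, and Rdh5, a retinol dehydrogenase, was level at 83, 70.8 and 77.1 CPM in strict pericytes. The others were Aspn (7.73-fold), Adap2os, Col3a1, a fibrillar collagen, Mrc2 and Colec12, endocytic receptors, Ajap1, a junction protein, and Adcyap1r1, the receptor of the vasodilator PACAP, which stood at 113, 121 and 138 CPM in strict pericytes.

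Some differences were present at 12 months. Timp3 stood 2.39-fold (1.66 to 3.44) and Vim 2.37-fold (1.64 to 3.43) higher in adult than in young strict pericytes, and Cltc, the clathrin heavy chain, 2.37-fold (1.46 to 3.86). All 3 were still higher in the old library. Nfkbia, the NF-kappa-B inhibitor, was lowest in the adult library, at 209, 81 and 176 CPM, and Adprh, an ADP-ribose hydrolase, at 136, 45.5 and 132 CPM. Neither of those differed between the old and young libraries beyond counting error.

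The pericytes also varied among themselves. The Fano factor, the variance of a gene's UMIs over its mean in cells thinned to 2000 UMIs, had a median of 0.945 over 1234 genes, close to the value that random sampling gives. The lowest of the 3 libraries was taken for each gene. Gm42418, a locus that overlaps ribosomal RNA, reached 62.2 and Malat1 27.7. Lars2, a mitochondrial leucyl-tRNA synthetase, reached 6.89, Mgp 5.96, Rgs5 5.22, Vtn 4.56, the mitochondrial gene mt-Atp6 4.49, Fos 4.36 and Junb 4.31. At equal relative spread the factor rises with a gene's mean. In thinned young cells the mean was 196 UMIs for Gm42418 and 114 for Malat1. For Rgs5, Vtn, mt-Atp6 and Mgp it was 28.7, 27, 25.4 and 15.5. The means of Lars2, Fos and Junb were lower, at 4.72, 3.62 and 2.61.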

How the data were processed

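Counts per gene and barcode were deposited for 3 libraries; per the labels and the study's methods the authors made them with Cell Ranger 6.1.2 on mm10 from 10x Genomics v3.1 libraries. The deposited UMI counts are raw. Per library, the UMIs of all members were summed and divided by their total (CPM). Levels have exact Poisson intervals, ratios exact conditional intervals and shares Clopper-Pearson intervals, at 95%. Genes with at least 60 UMIs over the 3 libraries entered counts past 1.5-fold. With 1 library per age no test across samples was run. Comparison classes were smooth muscle cells (at least 3 smooth muscle and at most 2 endothelial genes), endothelial cells and rods. Rods had at least 6 of 10 markers, at most 1 pericyte gene and at most 1 endothelial gene. Scrublet marked 8, 17 and 12 kept barcodes, 0, 1 and 1 of them members, and none was removed. Named genes were those of the rule, the 12 most extreme ratios each way (6 for adult), the most abundant and the past-fold genes of each list, Irf7, Isg15, Cdkn1a and Cdkn2a. Genes compared with smooth muscle cells, Sqle and Sc5d were named after their values were seen. Some genes the rule allows are not reported here, and the sterol list leaves them out. The members and lists were chosen with earlier results of these data known. Positions and promoters came from GENCODE and RefSeq. Scripts ran in Python 3.11.15 with numpy 2.4.6, scipy 1.17.1, pandas 2.3.3 and scanpy 1.11.5, and the ratio code was tested on simulated data. Alternatives changed the rule, unit, depth, filters and free RNA.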

Additional observations from a re-analysis of the deposited data

Results flagged for a closer look

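For 5 gene lists the old-to-young ratio over all members and the one in endothelial cells lay on opposite sides of 1. With 1 library per age the difference was not tested. The PDGF and receptor kinase list stood at 0.858 in members and 1.03 in endothelial cells, and in strict pericytes at 0.956. The basement membrane and matrix list stood at 0.853 and 1.10, and in strict pericytes at 0.979. The cell cycle arrest and senescence list stood at 0.881 and 1.11, and in strict pericytes at 0.994. The immediate early and heat shock list stood at 0.798 and 1.04, and in strict pericytes at 0.903. The chemokine, cytokine and adhesion list stood at 7.32 in members, which held the old droplets with markers of other cell types, and at 0.908 in endothelial cells; in strict pericytes it was 1.17.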

How the results depend on the processing

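No paired analysis was possible because each age had 1 library and all replicate labels were 1. Size factors, CPM without mitochondrial, ribosomal and haemoglobin genes, and removal of Scrublet-marked droplets left every direction and every count within 1.5 times. All old-to-young values here are over all members unless strict pericytes are named; the causes of the moves were not tested.

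Old-to-young counts of genes higher and lower past the fold (222 and 259) became 83 and 139 with 0 endothelial genes allowed (26, 19 and 12 members), 128 and 129 with 0 smooth muscle genes, 89 and 78 after thinning, 40 and 28 with at least 200 UMIs, and 3485 and 3957 with no filter. The lower count was 152 with at least 4 pericyte genes, 155 without other-type droplets and 141 in strict pericytes. Adult-to-young counts (163 and 187) became 31 and 62 with 0 endothelial genes, 59 and 65 after thinning, 15 and 16 with 200 UMIs, 3739 and 3563 with no filter, and 100 higher with 0 smooth muscle genes.

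With at least 4 pericyte genes, without other-type droplets and in strict pericytes, in that order, ion channels turned to 1.02, 1.04 and 1.05, transcription factors to 1.03, 1.04 and 1.04, lipid genes to 0.824, 0.810 and 0.806, and Vtn to 1.00, 1.03 and 1.03. Matrix moved to 0.959, 0.979 and 0.979, contractile genes to 1.13, 1.15 and 1.15, and immediate early genes to 0.876, 0.899 and 0.903. With 0 endothelial genes matrix was 0.434, contractile genes 0.642, immediate early genes 0.6002, lipid genes 5.69, Kcnj8 0.433 and Col4a1 0.282, and Gstm1 (0.446), Lamp2 (1.19), Lgals1 (0.951), Mustn1 (0.446), Ube2d2a (1.12) and Vim (0.312) turned. With 0 smooth muscle genes matrix was 0.920, lipid genes 1.13 and Vtn 1.04. Under the stricter cell limits matrix was 0.813, immediate early genes 0.862 and lipid genes 2.34. After thinning matrix was 0.885, contractile genes 1.16, immediate early genes 0.922, transcription factors 1.00, lipid genes 1.08 and Cspg4 1.03. With free RNA subtracted matrix was 0.915, interferon genes 0.945, MHC class I 0.979 and immediate early genes 0.740. The member share was 1.52%, 0.963% and 0.701% with 0 endothelial genes and 4.73%, 1.98% and 1.93% with 0 smooth muscle genes.

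The sterol list lay between 0.428 and 0.521, and Msmo1 and Fdps below 1, under every alternative run. Depth limits what can be read of genes near 3 UMIs per library, such as Irf7 and Cdkn1a. Leaving out a library leaves no contrast for that age.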
